A study of Saccharomyces cerevisiae with 40 samples.

Results

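The genes of the flavoenzymes that feed electrons from NADH, lactate and glycerol 3-phosphate into the yeast respiratory chain were followed through the target tables of 5 transcription factors (TFs). They were taken by name: NDE1, NDE2, NDI1, DLD1, CYB2, and GUT2, that is, 6 of the 7125 genes in each table. The tables come from ChIP-exo, chromatin immunoprecipitation followed by exonuclease trimming of the DNA, of Ino2, Ino4, Hap1, Oaf1, and Pip2 in Saccharomyces cerevisiae chemostats, with 40 samples, 2 for each TF and condition. Each TF carried a C-terminal tandem affinity purification tag (calmodulin-binding peptide and protein A) in its own strain of the CEN.PK 113-5D background, so that all groups share the background and the tag, and every TF rests on 1 strain. The conditions were nitrogen limitation with 6% glucose (N-lim), ethanol limitation with 0.5% ethanol (Et-lim), oxygen and glucose limitation with ergosterol and a Tween detergent added and 1% glucose as labeled, where the methods give the same level as for Glu-lim (Ox,Glu-lim), and glucose limitation with 0.75% glucose (Glu-lim), against which the other conditions were set. The value for a gene is the log2 signal-to-noise ratio, log2(S/N), of the highest binding event assigned to it. The authors assigned events with the closest function of BEDTools, dropped targets over 1200 bp away, and kept events above 1; in the tables an event is listed for 1 gene (2034 events), 2 genes (1557), or 3 genes (10). Since duplicates are merged in the tables, each value stands without an error, no test between conditions was possible, and all differences below are descriptions.

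Yeast lacks the proton-pumping complex I of other mitochondria. In its place NDI1 oxidizes NADH on the matrix side of the inner membrane, and NDE1 and NDE2 oxidize cytosolic NADH on the outer side, all passing electrons to ubiquinone. GUT2, the FAD-dependent glycerol 3-phosphate dehydrogenase, also reduces ubiquinone and closes the glycerol phosphate shuttle. DLD1 (D-lactate) and CYB2 (L-lactate, a flavin and heme protein of the intermembrane space) pass electrons to cytochrome c. Among the TFs, Ino2 and Ino4 form the heterodimer that controls phospholipid genes, Hap1 responds to heme, and Oaf1 and Pip2 form the heterodimer that controls genes of fatty acid oxidation.

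All coordinates and sequences are those of assembly R64 of the S288C genome (RefSeq); the genome of the cultured CEN.PK strain was not used. NDE1 (YMR145C) lies on chromosome XIII at 554793 to 556475, NDI1 (YML120C) at 28266 to 29807, and CYB2 (YML054C) at 165533 to 167308 of the same chromosome, all on the minus strand. DLD1 (YDL174C) lies on the minus strand of chromosome IV at 145826 to 147589, and NDE2 (YDL085W) on its plus strand at 303211 to 304848. GUT2 (YIL155C) lies on the minus strand of chromosome IX at 51759 to 53708. Each of the 6 genes has 1 coding exon in the RefSeq annotation. The windows printed next show where a motif of the TF lay beside a member event (CYB2 with Ino4, the Hap1 windows with capitals, and NDE1 with Oaf1) and, for contrast, events without it. The NDE1 window of Ino2 and Ino4 and the CYB2 window of Ino2 under Et-lim hold a reported k-mer other than CACATGC, the NDE1 window of Hap1 under Et-lim holds neither, and the DLD1 window is widened to reach the nearest motif. They are given 5′ to 3′ on the strand of the gene, 20 bp on each side of the event (40 bp for DLD1), and capitals mark the k-mer that the event caller reported or the motif searched for that TF.
NDE1, Ino2 and Ino4, chrXIII:556832-556872, minus strand: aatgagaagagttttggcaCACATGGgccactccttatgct
CYB2, Ino2 and Ino4, chrXIII:167798-167838, minus strand: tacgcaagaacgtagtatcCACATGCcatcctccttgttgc
CYB2, Ino2 in Et-lim and Glu-lim, chrXIII:167672-167712, minus strand: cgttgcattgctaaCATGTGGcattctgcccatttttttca
NDE1, Hap1 in Ox,Glu-lim and Glu-lim, chrXIII:557029-557069, minus strand: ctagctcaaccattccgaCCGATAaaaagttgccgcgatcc
NDE1, Hap1 in Et-lim, chrXIII:557102-557142, minus strand: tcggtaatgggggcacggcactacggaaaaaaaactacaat
CYB2, Hap1 in Et-lim and Glu-lim, chrXIII:167522-167562, minus strand: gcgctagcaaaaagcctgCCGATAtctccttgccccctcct
GUT2, Hap1 in Glu-lim, chrIX:53881-53921, minus strand: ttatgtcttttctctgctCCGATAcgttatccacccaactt
NDE2, Hap1 in Glu-lim, chrIV:302928-302968, plus strand: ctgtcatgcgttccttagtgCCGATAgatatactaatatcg
DLD1, Hap1 in Glu-lim, chrIV:147799-147879, minus strand: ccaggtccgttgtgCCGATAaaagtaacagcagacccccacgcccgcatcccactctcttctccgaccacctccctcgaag
NDE1, Oaf1, chrXIII:557193-557233, minus strand: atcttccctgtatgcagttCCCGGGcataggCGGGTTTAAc

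The 6 genes had 35 listed entries of 120 possible, where 3.63% of all 142500 possible entries were listed, and these were spread very unevenly. NDE1 and CYB2 had 13 entries each, DLD1 had 4, GUT2 had 3, NDE2 had 2, and NDI1 had 0. Among the 1371 genes with any entry, 23 had at least 13. NDE1 was listed for all 5 TFs, CYB2 for 4, and NDE2, DLD1, and GUT2 for 2 each, namely Ino2 and Hap1. Listing for all 5 TFs was met by 35 genes, 0.491% of the tables, so that NDE1 is the member among them.

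By TF, Hap1 had events on 5 members (14 entries), Ino2 on 5 (9 entries), Ino4 on 2 (6 entries), Oaf1 on 1 (4 entries), and Pip2 on 2 (2 entries). The share of all genes with an event in any condition was 6.65% for Hap1, 11.7% for Ino2, 9.46% for Ino4, 6.34% for Oaf1, and 3.3% for Pip2. Hap1 listed 2 members under N-lim, 3 under Et-lim, 4 under Ox,Glu-lim, and 5 under Glu-lim, while it listed 0.73%, 2.48%, 3.51%, and 5.68% of all genes in these conditions, so that the members entered its lists in the same order as the lists grew. Ino2 listed 1 member under N-lim, 5 under Et-lim, 1 under Ox,Glu-lim, and 2 under Glu-lim, beside 1.87%, 10.2%, 3.47%, and 8.86% of all genes. Ino4 listed 1, 2, 1, and 2 members in this order of conditions, beside 2.33%, 2.5%, 6.82%, and 7.51% of all genes. Oaf1 listed NDE1 alone in every condition, beside 2.3%, 4.01%, 2.33%, and 3.44% of all genes. Pip2 listed 1 member under N-lim, 1 under Et-lim, and 0 under Ox,Glu-lim and Glu-lim, beside 0.758%, 1.59%, 0.575%, and 1.74% of all genes. The authors averaged the noise within each replicate, so that each TF and each condition has its own noise level. Levels of different TFs are therefore set side by side only. Differences between conditions are read beside the median over all genes listed in both.

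The promoters that the study used to check the tagged TFs had listed events. INO1, the inositol 3-phosphate synthase gene, ranged from 4.24 to 7.51 for Ino2 and from 6.19 to 7.55 for Ino4 over the 4 conditions. CYC1, the cytochrome c gene, ranged from 4.35 to 6.54 for Hap1. POX1, the acyl-CoA oxidase gene, ranged from 2.36 to 4.14 for Oaf1 and had 2.44 under N-lim and 3.16 under Glu-lim for Pip2, which listed it in no other condition.

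**Figure D1:**
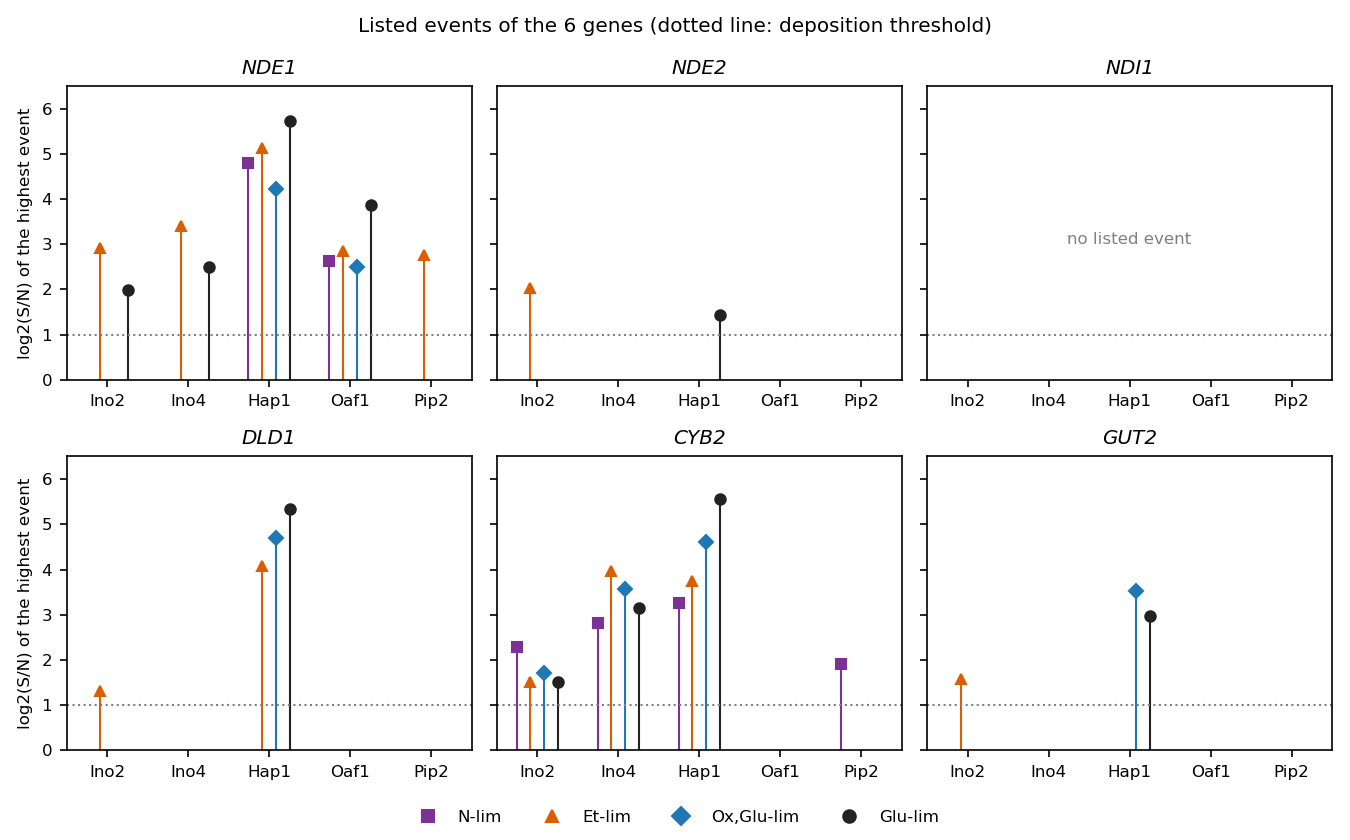
log2(S/N) of the highest listed event (y axis) of each TF (x axis) for the 6 genes, 1 panel per gene, with a symbol for each condition and no symbol where no event was listed. NDE1 and CYB2 hold 13 values each with the tallest symbols in the Hap1 columns, DLD1 and GUT2 hold mainly Hap1 values, and NDI1 holds none.

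NDE1, the external NADH dehydrogenase gene, showed the widest set of events, and these fell into 3 groups in the 1005 bp between its start and TIF34, which lies upstream on the same strand and encodes a subunit of translation initiation factor eIF3. Nearest to the gene, Ino2 and Ino4 had events 376 to 377 bp upstream of the start codon. Ino2 had 2.91 under Et-lim and 1.99 under Glu-lim, and Ino4 had 3.41 under Et-lim and 2.49 under Glu-lim. Neither TF had a listed event on NDE1 under N-lim or Ox,Glu-lim, the fermentative conditions. Values of these TFs were generally lower there. Over all genes listed in both, the median differences from Glu-lim were −1.73 and −0.97 for Ino2 and −1.27 and −0.54 for Ino4. For both TFs the Et-lim value was the higher, by 0.93 for Ino2 and 0.92 for Ino4, against medians of 0.27 and 0.39 over all genes listed in both conditions.

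Farther upstream, Hap1 had an event on NDE1 in every condition, with 4.79 under N-lim, 5.13 under Et-lim, 4.23 under Ox,Glu-lim, and 5.72 under Glu-lim. These placed NDE1 high in each list of Hap1: 94.2%, 84.7%, 80%, and 91.6% of the genes listed in these conditions had a lower value. Only 34 genes, 0.477% of the tables, had a Hap1 event in all 4 conditions, and both NDE1 and CYB2 were among them. The Hap1 event lay 602 bp upstream under N-lim, 647 bp upstream under Et-lim, and 574 bp upstream under both Ox,Glu-lim and Glu-lim.

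At the far end of the same promoter, Oaf1 had an event on NDE1 in every condition, with 2.64 under N-lim, 2.84 under Et-lim, 2.49 under Ox,Glu-lim, and 3.87 under Glu-lim. The Glu-lim value was the highest, and 76.3% of the Oaf1 genes of that list were lower, whereas the other values were near the middle of their lists (51.2%, 52.8%, and 48.2%). Being listed for Oaf1 in all 4 conditions was met by 63 genes, 0.884% of the tables. Pip2, the partner of Oaf1, had an event on NDE1 under Et-lim alone, with 2.76, and its position was the same base pair as that of Oaf1 in this condition, 736 bp upstream. The Pip2 event was also listed for TIF34. Under Et-lim all 5 TFs had an event on NDE1, which 4 genes, 0.0561% of the tables, met; the events spanned 360 bp, with Hap1 271 bp from Ino4 and 89 bp from Oaf1.

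NDE2, the second external NADH dehydrogenase gene, had 2 entries where NDE1 had 13. Both were for a TF and condition in which NDE1 was listed too. The encoded proteins are 560 residues (NDE1) and 545 residues (NDE2) long and were identical at 59.4% of 545 aligned positions, and NDI1 (513 residues) was identical to NDE1 at 50% of 492 and to NDE2 at 46.2% of 487. Hap1 had an event on NDE2 under Glu-lim alone, with 1.43, lower than all but 17.3% of the genes of that list, at 263 bp upstream and also listed for YDL085C-A. Ino2 had an event under Et-lim alone, with 2.04, which lay 1128 bp upstream inside the coding region of YDL086W and was also listed for LUC7, a splicing factor gene. NDI1, the internal enzyme, had no listed event for any TF in any condition. Of the 3 NADH dehydrogenase genes, NDE1 thus carried 13 of 15 entries.

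**Figure D2:**
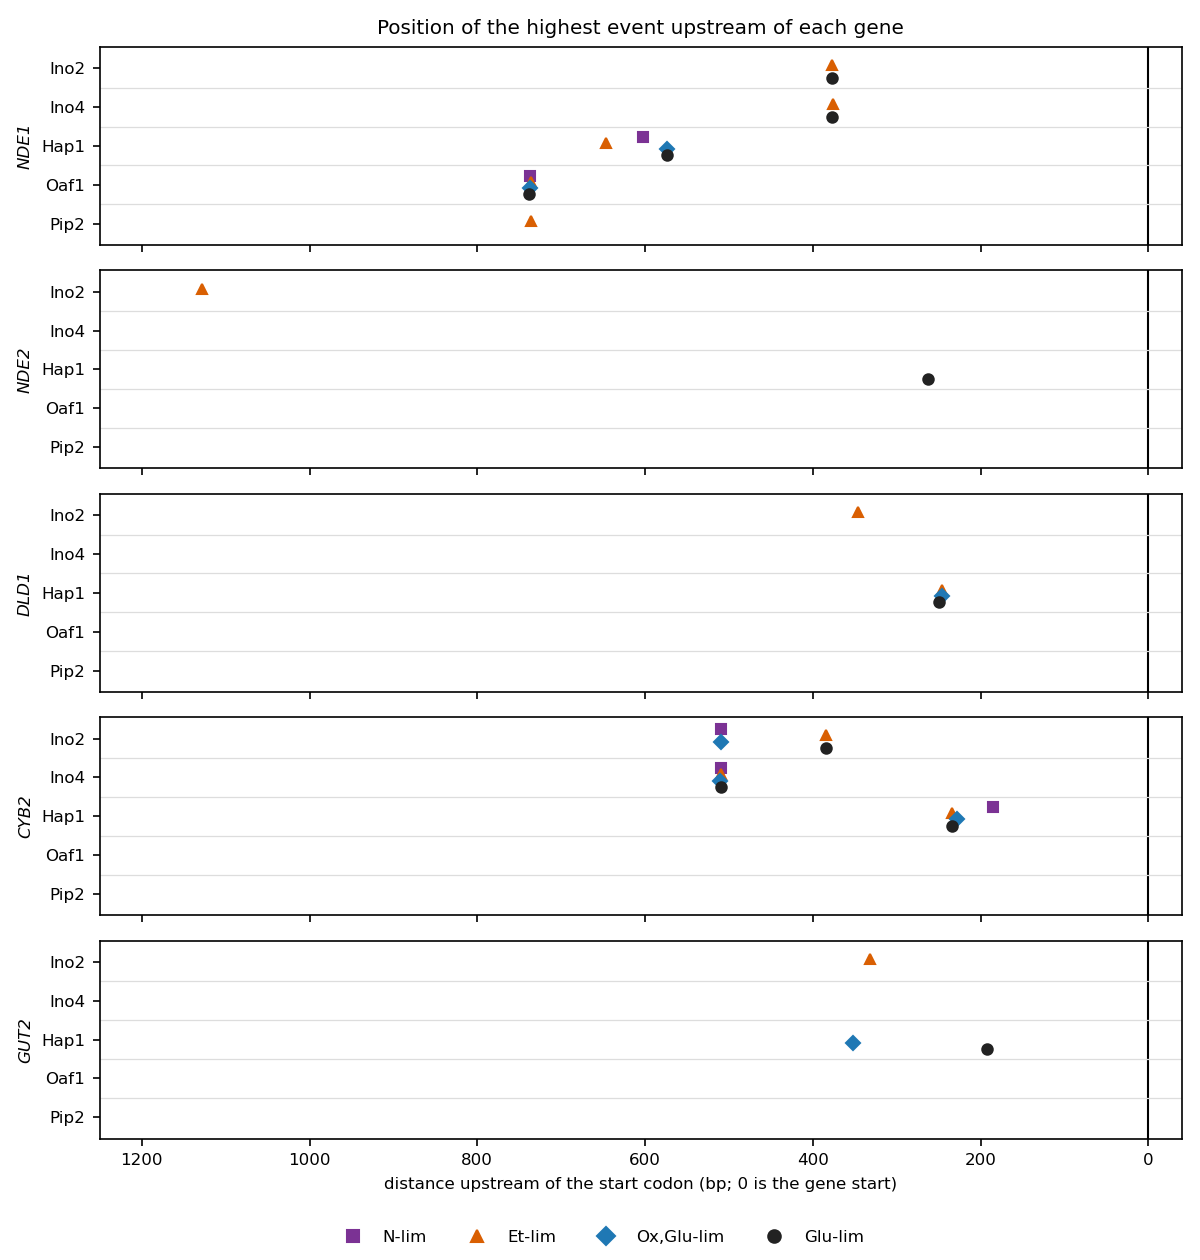
Position of the highest event upstream of each gene (x axis, bp from the start codon at 0), with 1 row per TF and a symbol per condition. NDE1 shows 3 groups of events at about 377, 574 to 647, and 736 to 738 bp, and CYB2 shows Ino4 at 509 to 511 bp, Ino2 at 510 or 384 bp, and Hap1 at 185 to 234 bp.

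CYB2, the L-lactate dehydrogenase gene, was listed in all 4 conditions for each of Ino2, Ino4, and Hap1. This was met by 4 genes, 0.0561% of the tables, and the others were ERG5 (a sterol desaturase), FAS1 (fatty acid synthase), and HMS1 (a helix-loop-helix protein). Hap1 on CYB2 had 3.27 under N-lim, 3.74 under Et-lim, 4.60 under Ox,Glu-lim, and 5.57 under Glu-lim. In its lists, which held 52, 177, 250, and 405 genes in these conditions, 40.4%, 58.8%, 85.6%, and 90.6% were lower. Ranks in lists of such different length do not show a change of CYB2. The event lay 185 bp upstream under N-lim and 228 to 234 bp upstream in the other conditions, in the 314 bp between CYB2 and the open reading frame YML054C-A.

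Ino4 on CYB2 had 2.82 under N-lim, 3.97 under Et-lim, 3.56 under Ox,Glu-lim, and 3.16 under Glu-lim, all at 509 to 511 bp upstream. Listing in all 4 conditions was met by 92 genes for Ino4, 1.29% of the tables, and by 98 genes for Ino2, 1.38%. Of the Ino4 genes listed in these conditions (166, 178, 486, and 535), 44%, 29.2%, 75.5%, and 65% were lower; these ranks too come from lists of different length. Ino2 on CYB2 had 2.28 under N-lim, 1.52 under Et-lim, 1.71 under Ox,Glu-lim, and 1.52 under Glu-lim. Its position followed the condition: 510 bp upstream, with Ino4, under N-lim and Ox,Glu-lim, and 384 bp upstream, inside YML054C-A, under Et-lim and Glu-lim. Only the highest event of a gene is listed, so a lower Ino2 event at the other position would not appear. All Ino2 and Ino4 events of CYB2 were also listed for the tyrosine tRNA gene SUP5 farther upstream.

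Pip2 on CYB2 had 1.91 under N-lim and no other entry. This event lay at 165091, past the 3′ end of CYB2 and inside the coding region of SPC2, a signal peptidase subunit gene, and it was also listed for IMD4, an IMP dehydrogenase gene. It is the 1 member entry of 35 that did not lie upstream of its gene. CYB2 had no listed Oaf1 event.

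DLD1, the D-lactate dehydrogenase gene, had Hap1 events with 4.08 under Et-lim, 4.69 under Ox,Glu-lim, and 5.35 under Glu-lim, and none under N-lim. Of the Hap1 genes listed, 68.9%, 86.8%, and 88.6% were lower in these conditions. The events lay within 4 bp, 246 to 250 bp upstream, in the 601 bp between DLD1 and the divergent gene PAR32, for which every DLD1 event was also listed. Ino2 had 1.31 on DLD1 under Et-lim, close to the listing threshold (13% of the listed genes were lower), 346 bp upstream and 100 bp from the Hap1 event. Under Glu-lim the 3 highest Hap1 values of the members were those of NDE1 (5.72), CYB2 (5.57), and DLD1 (5.35), which lay within 0.37 on the log2 scale; with no error known, their order is not resolved.

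GUT2, the glycerol 3-phosphate dehydrogenase gene, had Hap1 events with 3.52 under Ox,Glu-lim and 2.98 under Glu-lim, near the middle of the Hap1 lists (61.6% and 62.7% lower). These were different places: 352 bp upstream under Ox,Glu-lim, inside the coding region of IMP21, and 193 bp upstream under Glu-lim, in the 272 bp between GUT2 and IMP21. The Ox,Glu-lim event was also listed for RRD1, a peptidyl-prolyl isomerase gene. Ino2 had 1.59 on GUT2 under Et-lim, 332 bp upstream and also inside IMP21 and listed for RRD1. GUT2 had no listed event under N-lim.

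For Hap1 the members listed in both conditions were mostly lower than under Glu-lim. Under N-lim, CYB2 was lower by 1 or more on the log2 scale (−2.30) and NDE1 was not (−0.93), while 70.5% of the 44 genes listed in both were lower by that much and the median was −2.08. NDE1 lay above most genes, since 34 of 44 had a lower difference. Relative to the median, NDE1 was higher by 1.15 and CYB2 was at −0.22. Under Et-lim, CYB2 (−1.83) and DLD1 (−1.27) were lower by 1 or more and NDE1 (−0.58) was not, against 24.2% of 157 genes and a median of −0.25. Only 4 of the 157 genes had a lower difference than CYB2. Under Ox,Glu-lim, NDE1 (−1.49) was lower by 1 or more, and CYB2 (−0.97), DLD1 (−0.66), and GUT2 (0.54) were not, against 27.1% of 199 genes and a median of −0.14. By value, CYB2 was farthest below Glu-lim under N-lim and Et-lim, and NDE1 under Ox,Glu-lim. With no error known, this order is not resolved, and CYB2 under N-lim lay near the median. Several of these differences compare events at different places. The NDE1 event lay 602 bp upstream under N-lim and 647 bp under Et-lim, against 574 bp under Glu-lim. That of CYB2 lay at 185 bp under N-lim against 234 bp, and that of GUT2 at 352 bp under Ox,Glu-lim against 193 bp.

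For Oaf1, NDE1 was below Glu-lim by 1 or more in every comparison, with −1.23 under N-lim, −1.03 under Et-lim, and −1.38 under Ox,Glu-lim. The same was met by 34.7% of 98 genes, 21.8% of 147 genes, and 34.8% of 92 genes, with medians of −0.67, −0.34, and −0.46. Relative to these medians, NDE1 was at −0.56, −0.69, and −0.92, all less than 1 in size. The comparisons share the Glu-lim samples. For Ino4, CYB2 differed from Glu-lim by −0.34 under N-lim, 0.81 under Et-lim, and 0.40 under Ox,Glu-lim, all under 1. The medians of Ino4 were −1.27, 0.39, and −0.54, so that relative to the median the N-lim difference of CYB2 was 0.93. For Ino2, CYB2 differed by 0.76 under N-lim, 0.00 under Et-lim, and 0.20 under Ox,Glu-lim. The medians of Ino2 were −1.73, 0.27, and −0.97, and 117 of 125 genes had a lower difference than CYB2 under N-lim, where its event was at another position than under Glu-lim.

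**Figure D3:**
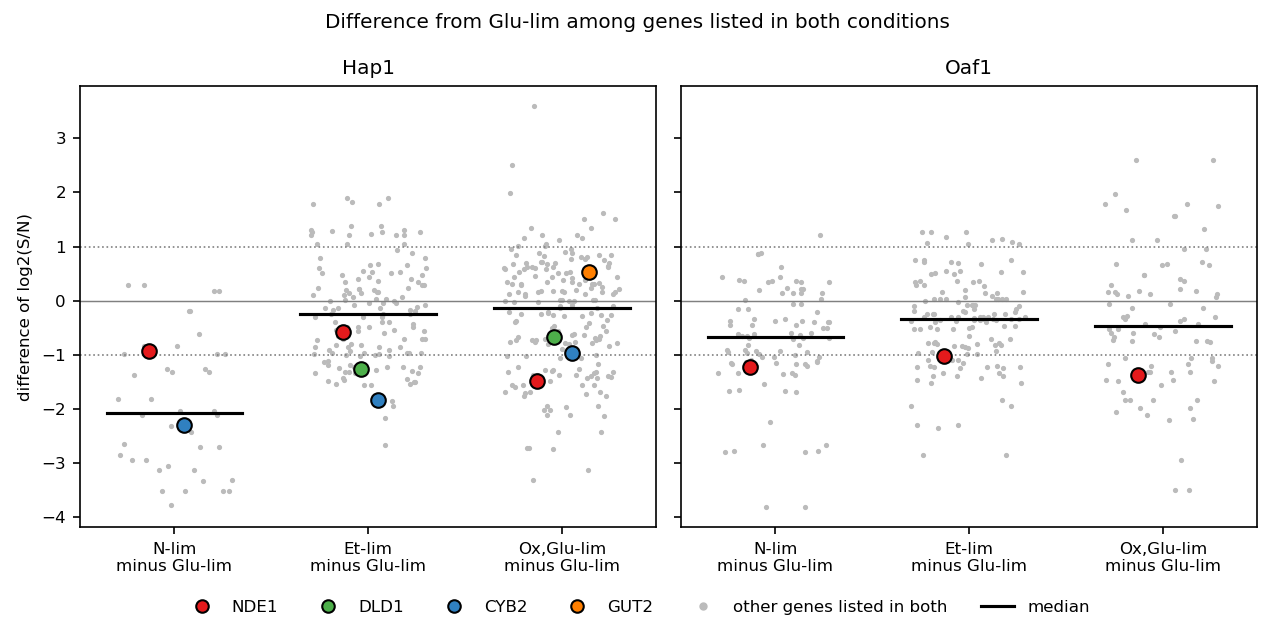
Difference of log2(S/N) from Glu-lim (y axis) for Hap1 (left) and Oaf1 (right) in the 3 other conditions (x axis); large points are members, small points other genes listed in both conditions, and bars the medians over all of them. For Hap1, CYB2 lies at −2.30 beside a median of −2.08 under N-lim and at −1.83 beside a median of −0.25 under Et-lim, and NDE1 lies between −1.03 and −1.38 for Oaf1.

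The position of the highest event varied by at most 2 bp over the conditions on some members and by more on others. The Oaf1 event of NDE1 ranged over 2 bp across the 4 conditions, the smallest range of the 63 genes listed in all 4, whose median was 84 bp. The Ino4 event of CYB2 also ranged over 2 bp, which 31 of 92 genes met and which compares with a median of 10.5 bp. The Ino2 event of CYB2 ranged over 126 bp, beside a median of 5 bp, and 15 of 98 genes ranged at least as far. The Hap1 events ranged over 73 bp on NDE1 and 49 bp on CYB2, beside a median of 48 bp over 34 genes.

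**Figure D4:**
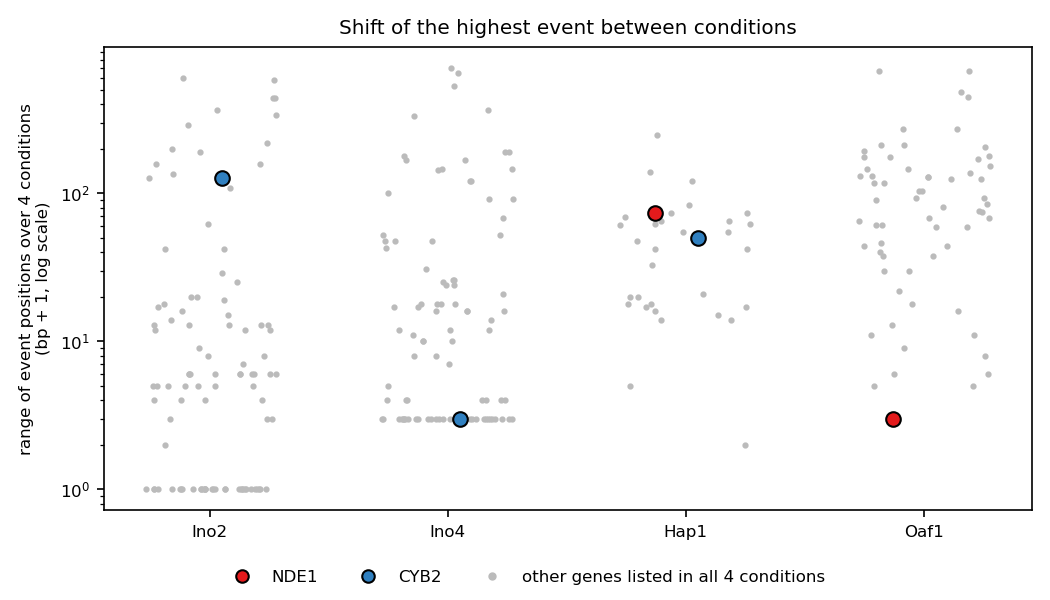
Range of the positions of the highest event over the 4 conditions (y axis, bp plus 1, log scale) for genes listed in all 4 conditions, by TF (x axis). NDE1 is the lowest point of Oaf1 at a range of 2 bp, and CYB2 is low for Ino4 (2 bp) and high for Ino2 (126 bp).

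The motifs of the TFs were searched on both strands in the 41-bp windows around the events. The Hap1 motif CCGATA is the form that the paper gives for Ox,Glu-lim and Glu-lim. It was found beside 5 of 11 distinct Hap1 positions of the members, on CYB2, GUT2, NDE1, and NDE2, as in the windows printed above. With positions within 10 bp merged into 1 site, these were 4 of 9 sites. It was found beside 23.7% of all 570 distinct Hap1 positions (24.2% of 480 sites) and in 1.15% of windows of this length placed 450 bp upstream of 6000 protein-coding genes. On NDE1 it lay 26 bp from the N-lim event and 71 bp from the Et-lim event, on CYB2 46 bp from the N-lim event, and on GUT2 157 bp from the Ox,Glu-lim event. In the Glu-lim events of these genes and of NDE2 the motif covered the event (distance 0 bp). The event caller reported CCGATA itself at each of these Glu-lim events. The paper derived the motif of each TF from its own events, so matches beside events are not independent of the calls. On DLD1 the nearest CCGATA was 21 to 25 bp away, just outside the window, so that its strong Hap1 events had no match within 20 bp.

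On CYB2 the motif continues as CCGATATCTCC, a match to the longer form CCGNTATNTCC, which contains CCGATA where its first free base is A. This longer form is the Hap1 motif that the paper gives for N-lim and Et-lim. It was added to the search here after the window had been seen. That form was beside 1 of the 9 member sites, 1.46% of all Hap1 sites, and 0.0667% of the promoter windows. The published form CCGNTANNNCCG was beside none of the member sites and 2.29% of all Hap1 sites. The half-site CCG, which lies within each Hap1 motif, was beside 8 of 9 member sites, against 87.5% of all Hap1 sites and 36.3% of promoter windows. The exception was the Ox,Glu-lim event of GUT2.

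The Ino2 and Ino4 motif CACATGC was beside 1 of 2 Ino4 sites and 1 of 6 Ino2 sites of the members, both the site of CYB2 about 510 bp upstream, against 16.8% of 590 Ino4 sites, 12.8% of 729 Ino2 sites, and 0.167% of promoter windows. The k-mer on NDE1 was CACATGG instead for both TFs. The Oaf1 motif CGGNNNTAA was beside the 1 Oaf1 site of NDE1, called at 3 neighboring positions, 9 to 11 bp away as CGGGTTTAA at 557194 to 557202. It was beside 14.4% of 466 Oaf1 sites and in 1.08% of promoter windows. The k-mer reported at these events, CCCGG or CCGGG, is a different stretch next to it. The Pip2 motif CCGNNNTA was beside neither Pip2 event, and most Pip2 events lacked it: it was beside 8.7% of 184 Pip2 sites and in 3.07% of promoter windows. The Pip2 event of NDE1 lay at the base of the Oaf1 event under Et-lim, 9 bp from CGGGTTTAA. According to the paper, earlier work gave Pip2 and Oaf1 the same motif. CCAAT, the box of the Hap2/3/4/5 complex, which controls many respiratory genes, was beside 1 of 9 Hap1 sites, that of CYB2 under N-lim, against 5.62% of all Hap1 sites and 8.75% of promoter windows.

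Over the 800 bp upstream of the start codon, CCGATA was present in every member but NDI1, against 17.7% of 5997 promoters. NDE1 had it at 576 bp, NDE2 at 263 bp, DLD1 at 276 bp, GUT2 at 195 bp, and CYB2 at 635 and 236 bp upstream. CACATGC was present only in CYB2, at 511 bp, against 5.84% of promoters. CGGNNNTAA was present in NDE1, NDE2, and NDI1, against 21.2% of promoters, and only that of NDE1 lay beside a listed Oaf1 event. These matches are letters in a window and do not show binding.

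For the 3 members with at least 4 entries, the most similar of the other genes were sought over the 20 values of a gene, with unlisted values set to 0; points of 1 TF come from 1 table, so that r is a description. NDE1 was most like ERG11 (lanosterol demethylase; r = 0.83), and like CIN1 (tubulin folding) and PUT4 (proline permease), which share all their values (r = 0.83). By Spearman's rho none of these 3 genes was among the 3 most like NDE1, and with unlisted values at 1 only 1 of them was. For Hap1, ERG11 had 3.76 under N-lim, 6.06 under Et-lim, 5.85 under Ox,Glu-lim, and 7.53 under Glu-lim, and its Oaf1 values were 1.49 to 2.48. CYB2 was most like ERG5 (r = 0.81), HMS1 (r = 0.75), and ANB1 (r = 0.72), the hypoxic translation factor gene next to CYC1. All listed values of ANB1 equal those of CYC1, so that the likeness does not tell these neighbors apart. With unlisted values at 1, 1 of the 3 genes most like CYB2 was kept. DLD1 was most like GSH1 (glutathione synthesis) and LSB6 (a phosphatidylinositol kinase), both with r = 0.96, and YHB1 (flavohemoglobin; r = 0.95), none of which was among the 3 most like it by Spearman's rho. GSH1 had Hap1 values of 3.71 under Et-lim, 3.45 under Ox,Glu-lim, and 4.70 under Glu-lim, and none under N-lim, as DLD1 had none. LSB6 had the same listed values as GSH1 except for 3.33 for Hap1 under Ox,Glu-lim, so that these may not be separate matches.

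Genes that act beside the members were read from 7 lists with 63 genes in all, of which 28 had a listed event, where 19.2% of all genes had one. The lists differed: of the quinone-linked and coenzyme Q genes, 1 of 8 and 1 of 10 were listed, no more than that share. Hap1 had events on 22 of them, Ino2 on 14, Ino4 on 11, Oaf1 on 9, and Pip2 on 3, beside the shares of all genes given above. Events of these genes can also be listed for a neighboring gene, which is not given gene by gene. Hap1 had events on 8 of 11 genes of complex III, which takes electrons from ubiquinone, and cytochrome c, which CYB2 and DLD1 reduce, and on 6 of 9 genes of cytochrome c oxidase. In that last list no other TF had an event. COX6 had Hap1 values of 3.61 under N-lim, 4.41 under Et-lim, 3.84 under Ox,Glu-lim, and 4.60 under Glu-lim. COX7 had values in 3 conditions (2.11 to 4.21), and COX5A in 2 (2.65 under Ox,Glu-lim and 3.96 under Glu-lim). Complex III genes also had events of the other TFs: QCR6 had 13 entries, with Hap1 values of 3.96 to 7.13, and CYT1 and COR1 had 10 each, with Hap1 values of 4.67 to 7.62 and 2.98 to 4.03.

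Of the 4 other lactate genes, 2 had events. JEN1, the lactate permease gene, had Hap1 events alone, with 3.05 under Et-lim, 4.29 under Ox,Glu-lim, and 5.73 under Glu-lim, and none under N-lim. The Hap1 values of DLD1 and CYB2 had the same order over these conditions, as had 25.4% of the 114 genes with Hap1 events in all 3, while NDE1 had not. ADY2, an acetate and lactate transporter gene, had 7 entries, with Ino2 values of 4.89 under Et-lim and 3.56 under Glu-lim and 1 Hap1 value of 1.78 under Glu-lim.

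Of the 11 glycerol genes, 6 had events, all with Ino2 and 3 with Hap1. HOR2 and RHR2, the glycerol phosphatase genes, had 7 and 4 entries, and GPD2, a gene for an enzyme that makes glycerol 3-phosphate, had 5. Hap1 had 1.77 under Ox,Glu-lim and 1.09 under Glu-lim on HOR2, and 2.40 under Ox,Glu-lim and 2.23 under Glu-lim on GPD2. On STL1, a glycerol transporter gene named after its values were seen, Hap1 had 4.10 under Et-lim and 3.43 under Glu-lim, and none under Ox,Glu-lim.

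Of the 8 other quinone-linked dehydrogenase genes, PUT1, the proline dehydrogenase gene, was the only one listed. It had 12 entries, and its Oaf1 values were 5.95 under N-lim, 5.27 under Et-lim, 6.76 under Ox,Glu-lim, and 6.11 under Glu-lim. These were above the Oaf1 values of NDE1 in every condition. Another gene had the same Oaf1 differences from Glu-lim in every comparison, so these events may not belong to PUT1 alone. The succinate dehydrogenase genes of the list had no event. Of 10 genes of coenzyme Q synthesis, COQ2 alone was listed, with 2.18 for Hap1 under Glu-lim. Of 10 NADH shuttle genes, 4 were listed: MDH2, the cytosolic malate dehydrogenase, had 8 entries with Oaf1 values of 3.87 to 6.55, ADH3, the mitochondrial alcohol dehydrogenase, had 7, all of Ino2 and Ino4, and OAC1, the oxaloacetate carrier, had 4 with Hap1 values of 1.43 to 2.67.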

How the data were processed

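The 40 samples were grouped by TF and condition from their labels. Reads were not used here. According to the methods, the authors aligned reads to R64-2-1 with Bowtie2, trimmed 70 bases from the 3′ end, called events with GEM over the duplicates, assigned events to genes with the closest function of BEDTools, dropped targets over 1200 bp away, and listed the highest event of a target; SAMtools and bedtools are named in the submitters' processing notes, without versions. The deposited log2 values of Ino2, Ino4, Hap1, and Oaf1 are log2(S/N) above 1, and the same values of Pip2 were deposited by the authors in a table whose lines end at the last filled cell, read here as a score on that scale. The other deposited columns used (position, k-mer, strand, and distance) were taken as given by the authors. Depth is not given in the sources used here, and merged duplicates leave no measure of precision.

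In every table, 20 columns were read, and 1 line without a gene name was left out. Of 3338 entries with a k-mer, 3335 had it within 20 bp of the event in the R64 reference, and distances upstream were recomputed from its annotation. In 34 of 35 member entries they were within 1 bp of the deposited distance. Of 7125 genes, 6209 matched the annotation by name. Ranks, differences (called at 1 or more), position ranges, motif matches, protein identity (BLOSUM62, gap penalties of −11 and −1), and Pearson's r were computed with Python 3.11.15, SciPy 1.17.1, and Biopython 1.88. Motif searches left out 1 event on the mitochondrial genome. The motif search and the profile ranking were tested on simulated data.

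Genes are named by a rule: the 6 members, genes that share an event position with a member, the 3 genes most like each member with at least 4 entries, the control genes, and in each pathway list the 3 genes with most entries. FAS1 and STL1 were named after their values were seen. The members and lists were chosen with earlier results of these data known. Alternatives were thresholds of 1.5 and 2, a distance of 600 bp, counting an event for the nearest listed gene only, protein-coding genes as background, differences after subtraction of the median, ranks among distinct events, windows of 10 and 50 bp, Spearman's rho, and unlisted values at 1. Counting upstream events only and merging positions within 10 bp into 1 site were added after seeing the data.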

Additional observations from a re-analysis of the deposited data

How the results depend on the processing

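No paired analysis was possible because the duplicates of each TF and condition are merged in the tables, and no replicate could be left out for the same reason. At a threshold of 2, Ino2 had 3 members and 3 entries, and Pip2 had 1 member and 1 entry. Within 600 bp, Oaf1 had 0 members and 0 entries, since its NDE1 events lie 736 to 738 bp upstream, and Pip2 had 1 of each. With an event counted for its nearest listed gene only, Ino2 had 3 members and Pip2 had 1 member and 1 entry; with upstream events only, Pip2 had 1 of each. Other counts of members and entries stayed within 1.5 times. With protein-coding genes as background, the listed share was 11.2% for Ino2 under Et-lim and 9.76% under Glu-lim, 8.23% for Ino4 under Glu-lim, and 3.98% and 6.36% for Hap1 under Ox,Glu-lim and Glu-lim. After subtraction of the median of genes in both conditions, the Hap1 difference of NDE1 under N-lim turned to 1.15 and that of CYB2 under N-lim was −0.22. The Oaf1 differences of NDE1 were then −0.56 under N-lim, −0.69 under Et-lim, and −0.92 under Ox,Glu-lim, all under 1 in size, and the Ino2 differences of CYB2 were 2.49 under N-lim and 1.17 under Ox,Glu-lim. The other 13 differences stayed on their side of 1. All 35 ranks moved by at most 5.9 percentage points among distinct events. Windows of 50 bp gave 8 of 11 Hap1 positions with the motif, against 30.7% of all 570 Hap1 positions at that width. Windows of 10 bp gave 0 of 3 Oaf1 positions, against 8.64% of all 590 Oaf1 positions. With positions within 10 bp merged, Ino4 and Oaf1 had 1 site each with the motif, instead of 3 positions each. Of the 3 genes most like NDE1, 0 were shared under Spearman's rho and 1 with unlisted values at 1; for CYB2, 1 was shared with unlisted values at 1, and for DLD1, 0 under Spearman's rho. Library depth is unknown, and an event can be assigned to a neighboring gene, so an unlisted gene is not shown to lack binding.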
